A study of Mus musculus with 6 samples.

Results

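The genes described here are Thrsp and 8 genes of fatty acid synthesis in the mouse hippocampus: Srebf1, Acly, Acaca, Fasn, Scd1, Scd2, Elovl5 and Me1. Thrsp was selected on its higher count in these mice, and the other 8 were chosen by name as the regulator and enzymes of the same pathway, to ask whether the difference extends to them. A row of the deposited table belonged to the set when its isoform name, without the final number, was one of these symbols, which gave 9 of 53354 gene symbols and 46 of 133944 isoforms. Hippocampal RNA was sequenced in 6 mice of the C57BL/6 strain, all 3 months old, of which 3 were N-cre and 3 were N-cre;Fox1, with 1 library for each. Both genotypes carry the nestin-cre transgene. N-cre;Fox1 mice also carry 1 copy of an Rbfox1 cDNA in the Gt(ROSA)26Sor locus on chromosome 6, behind a CAG promoter and a STOP cassette that cre removes. Nestin is a gene of neural progenitors, so the cre could act in cells descended from them. In the hippocampus, however, the paper reports cre activity as specific to neurons. It also reports that Rbfox1 protein there did not co-localize with the glial marker GFAP. The allele was made in embryonic stem cells of a 129 strain before backcrossing. The paper reports a modest rise of Rbfox1 mRNA in N-cre;Fox1 hippocampi, without showing those data, and a rise of Rbfox1 protein by immunoblot. In the libraries described here Rbfox1, summed over its isoforms, was at 279 ± 8.04 CPM (counts per 1000000, SD, n = 3) in N-cre and 281 ± 23.1 CPM (SD, n = 3) in N-cre;Fox1 mice, with overlap of the genotypes. Of its 2 isoforms with enough counts to be tested, Rbfox1-201 overlapped, and Rbfox1-202 was at 33.1, 33.6 and 35.5 CPM in N-cre and at 45.9, 40.9 and 44.4 CPM in N-cre;Fox1 mice, 28.4% higher and apart, with an adjusted p of 0.623 over all isoforms in edgeR.

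Fatty acids are built in the cytosol from acetyl-CoA. ATP citrate lyase (Acly) makes acetyl-CoA from citrate, acetyl-CoA carboxylase (Acaca) turns it into malonyl-CoA, and fatty acid synthase (Fasn) joins these units into palmitate with NADPH that malic enzyme (Me1) helps to supply. Stearoyl-CoA desaturases (Scd1, Scd2) then add a double bond, and Elovl5 lengthens polyunsaturated chains. The transcription factor SREBP-1 (Srebf1) switches on most of these genes in liver. Thrsp, also called Spot 14, is a small protein that thyroid hormone and carbohydrate induce in liver and fat, where it rises and falls with the lipogenic enzymes, and it is also known from neural progenitors of the adult hippocampus.

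The libraries held 40463587 to 62141336 expected counts, the number of read pairs that RSEM assigned to isoforms, which need not be whole. Genotypes were compared on counts summed per gene with edgeR, over 18924 genes, and a gene was called at a Benjamini-Hochberg adjusted p under 0.05. The 6 marker genes of hippocampal excitatory neurons were all present, at a summed 772 to 885 CPM. Markers of choroid plexus summed to 2257 CPM in N-cre replicate 3 and 5083 CPM in N-cre;Fox1 replicate 2, against 27.1 to 37.2 CPM in the other 4 mice. Xist was high in replicate 1 of each genotype, at 27387 and 22347 expected counts, and at 16.9 to 22.3 in the other 4 mice. Of 6 markers of fat tissue, Cfd was at 0 in all mice, Adipoq, Cidec and Fabp4 were also under 10 counts in every mouse, and Plin1 and Retn summed to 0.419 to 0.643 CPM.

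All 3 N-cre;Fox1 mice had more Thrsp RNA than the highest N-cre mouse. It was at 26.2, 26.2 and 25.3 CPM in N-cre replicates 1 to 3 and at 37.3, 30.8 and 32.6 CPM in N-cre;Fox1 replicates 1 to 3. The N-cre mice lay close together and the N-cre;Fox1 mice spread more widely, with replicate 1 the highest. The means were 25.9 ± 0.541 and 33.6 ± 3.36 CPM (SD, n = 3 each), a difference of 29.5%. On the log2 scale this was 0.37 ± 0.0677 (SE). This difference chose the set, so it is given without a test or an interval, and the SE does not allow for that choice. A difference chosen for being high can be larger than in other mice of these genotypes. The log2 fold change stayed between 0.30 and 0.43 with any 1 mouse left out. It was 0.42 without both mice that had choroid plexus counts, a setting added after seeing the data. These values come from the same mice that chose the set.

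**Figure D1:**
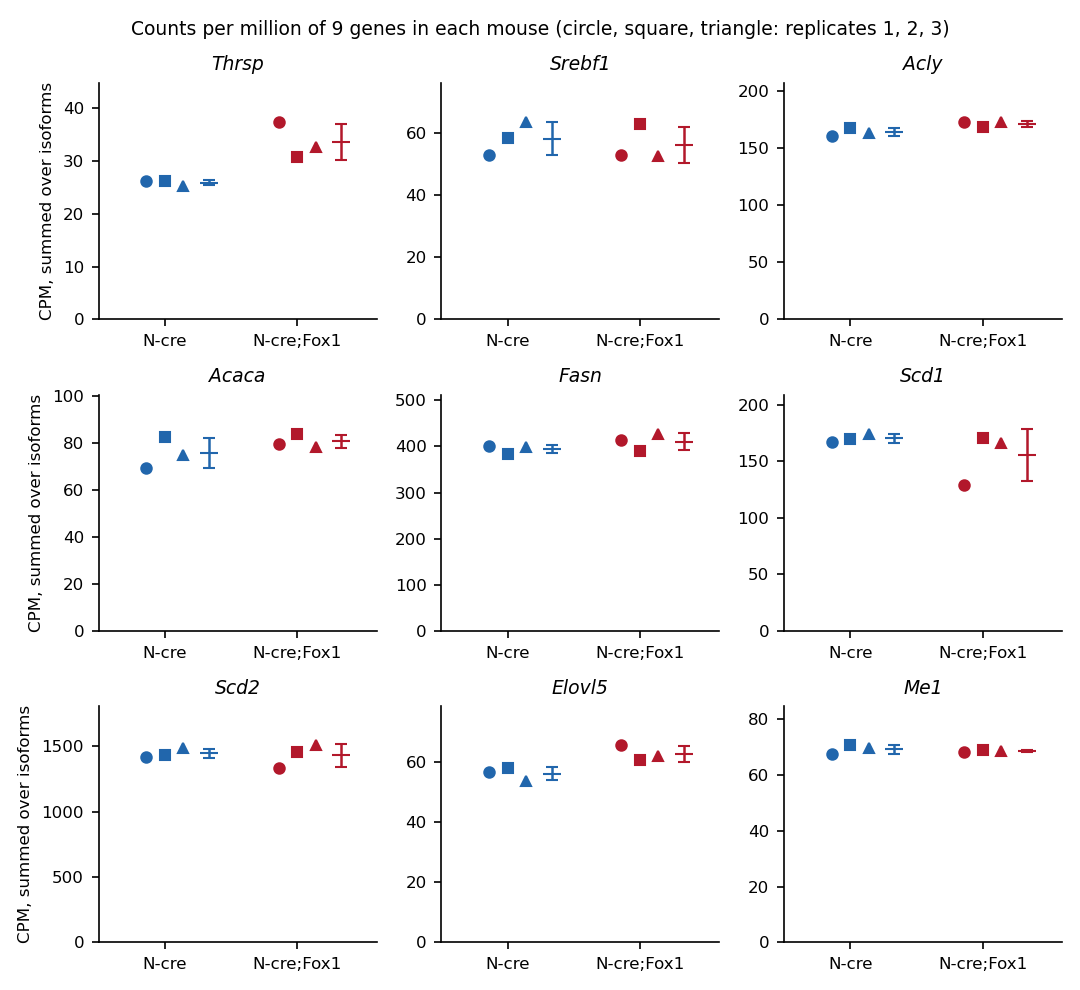
CPM (vertical axes from 0), summed over isoforms, of the 9 genes in 3 N-cre (blue) and 3 N-cre;Fox1 mice (red), with the mean and SD beside the points. Thrsp and Elovl5 show separate groups and Acly narrowly so, while the other 6 genes overlap between the genotypes.

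Thrsp lies on the minus strand of chromosome 7 (chr7:97412938-97417730, mm10), and its coding sequence of 450 nt is in 1 exon. The bases just before its start in the GENCODE annotation, taken from the RefSeq promoter window (GRCm38.p6), are shown because Thrsp is the gene the set was built around. Its mRNA also holds the letters TGCATG, the core of the motif that Rbfox proteins bind as RNA, once, in the 3′ untranslated region, shown with capitals for the motif.
Thrsp promoter, chr7:97417731-97417800: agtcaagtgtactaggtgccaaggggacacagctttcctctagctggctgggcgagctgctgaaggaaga
Thrsp-201 site, chr7:97413067-97413096: cctccctccaagTGCATGctgtacgcagct
TGCATG is also found in 27.5% of the isoforms of similar length that had enough counts to be tested. Its presence thus marks nothing particular to Thrsp, and binding was not measured here. Among the main isoforms of the other genes, Fasn-205 and Acaca-201 hold it 3 times each, Scd1-201 2 times, Scd2-201, Elovl5-201, Me1-201 and Srebf1-201 once each, and Acly-203 does not hold it.

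Both Thrsp isoforms had higher counts in every N-cre;Fox1 mouse, which is not separate from the choice of Thrsp on its summed count. Thrsp-201, which encodes the protein, took 93.2% to 96.9% of the counts of the gene. It was at 25.4, 25.5 and 24.4 CPM in N-cre and at 36.1, 28.8 and 31.0 CPM in N-cre;Fox1 mice. Thrsp-202, annotated as a retained intron, with 912 of its 1400 nt outside Thrsp-201, was at 0.926, 0.829 and 0.889 CPM in N-cre and at 1.21, 2.10 and 1.62 CPM in N-cre;Fox1 mice. The spliced and the intron-retaining RNA were thus both higher, but in different mice: N-cre;Fox1 replicate 1 was the highest for Thrsp-201 and replicate 2 for Thrsp-202. The share of Thrsp-202 ranged from 3.15% to 3.56% over the N-cre mice and from 3.23% to 6.82% over the N-cre;Fox1 mice, which overlapped.

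The summed level of 7 astrocyte markers was also higher in each N-cre;Fox1 mouse. It was 4304, 4127 and 4111 CPM in N-cre mice, against 4711, 4350 and 4528 CPM in N-cre;Fox1 mice, so the genotypes did not overlap. In 4 of the 7, Gfap, Aqp4, Slc1a2 and Gja1, the genotypes were apart with the N-cre;Fox1 mice higher, where the background was 6.06% of genes. The other 3, Aldh1l1, Slc1a3 and Aldoc, overlapped, and 0 of the 7 were called, with 5 log2 fold changes above and 2 below 0, from -0.14 to 0.38. Gfap, the intermediate filament of astrocytes, was at 458, 445 and 428 CPM in N-cre and at 646, 528 and 561 CPM in N-cre;Fox1 mice, a log2 fold change of 0.38 with an adjusted p of 0.32 in edgeR. Within each genotype the 3 mice stood in the same order as for Thrsp. In N-cre this rests on a near tie of replicates 1 and 2, at 26.221 and 26.217 CPM for Thrsp. For Thrsp-201 alone these 2 mice stood the other way, at 25.39 and 25.46 CPM. The part of the astrocyte markers in the Thrsp result was not tested, and in bulk tissue more cells of a type and more RNA per cell cannot be told apart.

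**Figure D2:**
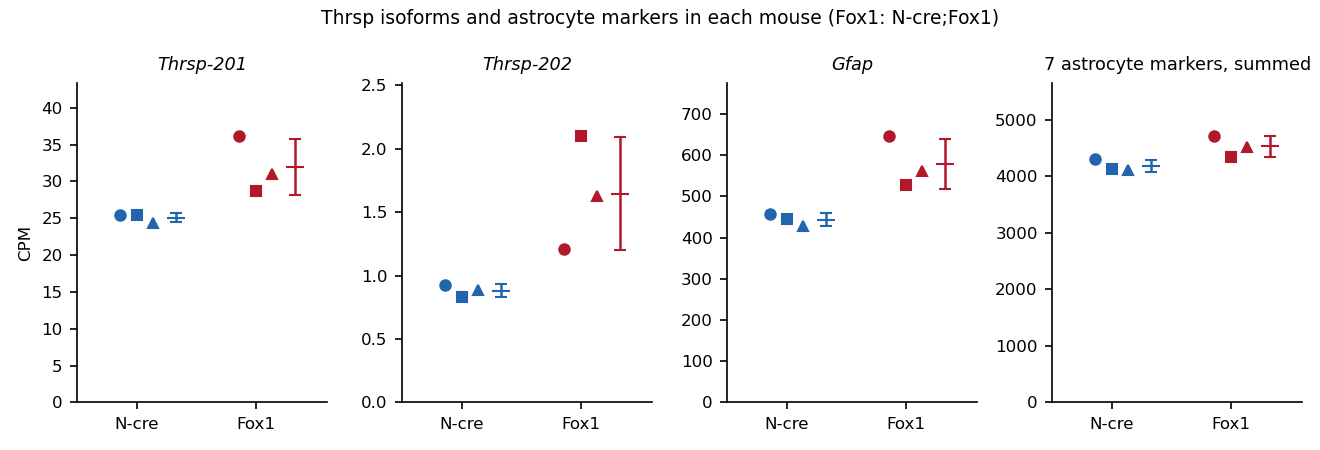
CPM (vertical axes from 0) of the 2 Thrsp isoforms, of Gfap and of 7 summed astrocyte markers in 3 N-cre (blue) and 3 N-cre;Fox1 mice (red), replicates 1, 2 and 3 as circle, square and triangle, with mean and SD. In each panel the N-cre;Fox1 mice lie above the N-cre mice. N-cre;Fox1 replicate 1 is the highest in 3 of the 4 panels but the lowest of its genotype for Thrsp-202.

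Across the 6 mice, the 5 genes whose log2 CPM followed Thrsp most closely, of 13736 genes whose mean normalized count reached 100, were Gfap (Pearson r 0.998), Serbp1 (0.992), Cxxc1 (0.990), Gpr37l1 (0.990) and Serpine2 (0.989). A total of 107 genes, 0.779% of those compared, had an r over 0.9. Of the 8 pathway genes, Elovl5 was among them at 0.963, followed by Acly at 0.839 and Fasn at 0.625. Acaca was at 0.409, Me1 at -0.38, Scd2 and Srebf1 at -0.47, and Scd1 at -0.79. With each genotype's mean taken out, r was 0.848 for Elovl5, 0.398 for Acly, 0.341 for Fasn, -0.19 for Acaca, -0.27 for Me1, -0.64 for Srebf1, -0.84 for Scd2 and -0.97 for Scd1. Elovl5 thus stayed the highest of the 8, and Acaca changed sign. Thrsp had an SD of 0.541 CPM in N-cre and 3.36 CPM in N-cre;Fox1 mice, so these values rest mainly on the latter. Among those, replicate 1 was the highest for Thrsp, at 37.3 CPM, and the lowest for Scd1, at 129 CPM. The values over all mice describe 6 libraries that differ in genotype and share the contrast that chose Thrsp, and all of them are given without a p.

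The higher Thrsp level came without a called difference in any of the 8 other genes. Their log2 fold changes ran from -0.13 to 0.16 with a median of 0.02, against a median of -0.00 over all genes tested, 4 above and 4 below 0. None of the 8 was called, where the background was 5 of 18924 genes, 0.0264%. For the 8, the adjusted p in edgeR ran from 0.636 to 0.986. In 2 of the 8, Elovl5 and Acly, all N-cre;Fox1 mice lay above all N-cre mice, and in 0 all lay below, where the background was 6.06% of genes above and 6.11% below. At an unadjusted p under 0.05 there was 1 gene of the 8, against 6.19% of all genes. The 95% intervals of the 8 folds had upper limits of 1.04 to 1.19. The Thrsp fold chose the set and can be too high for that reason, so these limits are not set against it. The difference between these folds and that of Thrsp was not tested.

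**Figure D3:**
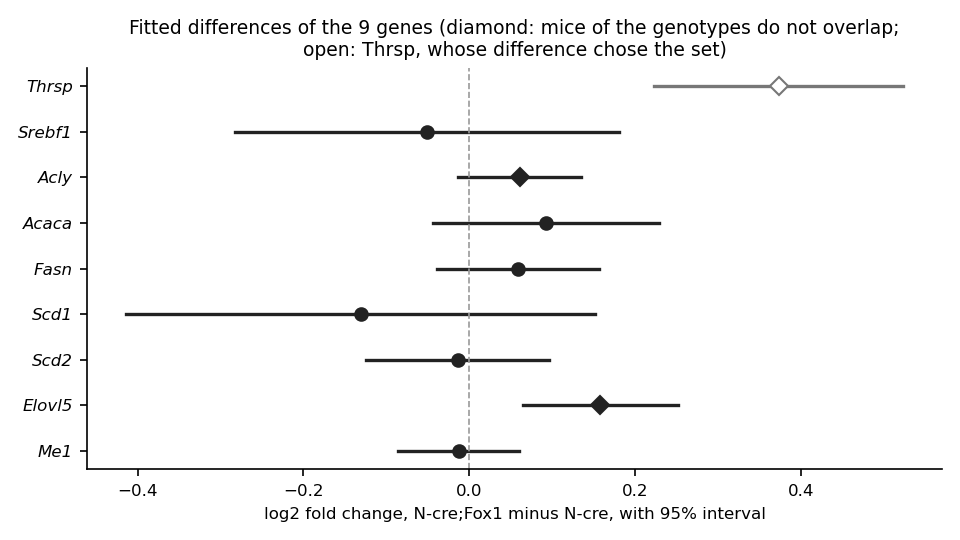
Log2 fold change (N-cre;Fox1 minus N-cre, horizontal axis) with its 95% interval for the 9 genes, diamonds where the mice of the genotypes do not overlap. The open diamond is Thrsp. Its difference of 0.37 chose the set, and its drawn interval does not allow for that choice. Of the other 8, only the interval of Elovl5, from 0.06 to 0.25, lies wholly above 0.

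The levels themselves differed widely between the genes. Per length, as TPM, transcripts scaled to a common total, from the annotated isoform lengths and averaged over the 6 mice, Scd2 stood at 619 TPM, Fasn at 145, Acly at 99.8, Scd1 at 79.1, Me1 at 57.7, Thrsp at 54.4, Elovl5 at 50.2, Srebf1 at 41.8 and Acaca at 21.5 TPM. From Scd2 down to Me1 the ranges of neighbours over the 6 mice did not overlap, although Scd1 reached down to 62.1 TPM in 1 mouse. Thrsp, from 46.3 to 67.9 TPM, overlapped with Scd1, Me1, Elovl5 and Srebf1, and Elovl5 also overlapped with Srebf1, while Acaca lay below all. In N-cre mice Thrsp was at 47.3 ± 0.939 TPM (SD, n = 3), level with Elovl5 at 47.3 ± 1.78 TPM, and in N-cre;Fox1 mice at 61.4 ± 5.75 against 53.0 ± 1.74 TPM.

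Srebf1, the regulator, did not differ between the genotypes beyond the spread of the mice. It was at 52.8, 58.2 and 63.3 CPM in N-cre and at 52.7, 62.7 and 52.6 CPM in N-cre;Fox1 mice. The values of each genotype covered nearly the same range. The fitted log2 fold change of -0.05 ± 0.0949 (SE) had an adjusted p of 0.97 in edgeR, and the fold had a 95% interval of 0.822 to 1.13. Srebf1 has separate starts on chromosome 11 whose first coding exons give SREBP-1a (Srebf1-201) and SREBP-1c (Srebf1-207), the latter being the form that insulin and LXR induce in liver. The coding part of each first exon is printed here (mm10, minus strand, no capitals used) because reads over it tell the forms apart.
Srebf1-201, chr11:60220453-60220543: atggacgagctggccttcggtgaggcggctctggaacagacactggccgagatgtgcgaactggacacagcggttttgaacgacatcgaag
Srebf1-207, chr11:60210336-60210354: atggattgcacatttgaag
Srebf1-201 held 50.1 ± 4.35% of the gene's counts in N-cre and 53.4 ± 5.63% in N-cre;Fox1 mice (SD, n = 3 each). Srebf1-207 was at 29.3%, 27.01% and 27.7% in N-cre and at 26.3%, 26.6% and 25.1% in N-cre;Fox1 mice. The Srebf1-207 share was lower in each N-cre;Fox1 mouse, by 1.96 percentage points on average. The exact two-sided permutation test gave p = 0.1, the smallest it can give with 3 against 3, and 0.4 after Benjamini-Hochberg adjustment over the 8 shares compared. Taken against the sum of Srebf1-201 and Srebf1-207, a ratio added after seeing the data, Srebf1-207 held 35.9 ± 2.14% and 32.9 ± 2.80% (SD, n = 3 each), and the genotypes overlapped. All 4063 nt of Srebf1-203, at 10.9% to 23.8% of the counts, are part of Srebf1-201 and 1 of its 17 exon joins is not in Srebf1-201, so the split between these isoforms rests largely on RSEM. All these shares divide the reads of whole isoforms and are not counts of reads over the first coding exons. Srebf1-201 also runs further downstream than Srebf1-207 and has 1252 nt in total that Srebf1-207 lacks. The shares are therefore not a measure of SREBP-1a against SREBP-1c use.

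Acly, the first enzyme, was slightly higher in every N-cre;Fox1 mouse. It was at 161.0, 168.1 and 163.8 CPM in N-cre and at 172.6, 168.6 and 172.6 CPM in N-cre;Fox1 mice. The lowest N-cre;Fox1 mouse was thus barely above the highest N-cre mouse. On the log2 scale the difference was 0.06 ± 0.0334 (SE), with an adjusted p of 0.845 in edgeR, and the fold had a 95% interval of 0.991 to 1.098. The main isoform, Acly-203, contains a coding cassette exon of 30 nt that Acly-201 and Acly-207 skip. The exon is printed in capitals with the coding bases on either side, above the join without it (mm10, minus strand, exon at chr11:100503160-100503189).
Acly-203: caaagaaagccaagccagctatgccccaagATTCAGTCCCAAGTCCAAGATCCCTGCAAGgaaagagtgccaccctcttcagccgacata
Acly-201: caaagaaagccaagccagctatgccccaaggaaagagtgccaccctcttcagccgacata
Of the counts of these 3 isoforms, Acly-203 held 65.9%, 63.5% and 66.7% in N-cre and 65.4%, 59.1% and 63.0% in N-cre;Fox1 mice. Use of the cassette exon overlapped between the genotypes.

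Of the isoforms without the exon, the shorter, Acly-207, held 11.5%, 14.2% and 7.49% of the gene's counts in N-cre and 16.2%, 18.3% and 17.7% in N-cre;Fox1 mice. All 3 N-cre;Fox1 mice were higher, by 6.32 percentage points on average, with an exact two-sided permutation p = 0.1, the smallest possible, and 0.4 after adjustment over the 8 shares. Acly-201 held 22.9 ± 1.98% in N-cre and 19.2 ± 2.11% in N-cre;Fox1 mice (SD, n = 3 each), which overlapped. All 4162 nt of Acly-207 are also part of Acly-201, and 0 of its 26 exon joins are absent from Acly-201, so its count rests on how RSEM divided reads that both isoforms can give. Its mean was 18.2 ± 5.83 CPM in N-cre and 29.8 ± 1.58 CPM in N-cre;Fox1 mice (SD, n = 3 each), a log2 fold change of 0.71 that was not called, with an adjusted p of 0.990 over all isoforms in edgeR.

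**Figure D4:**
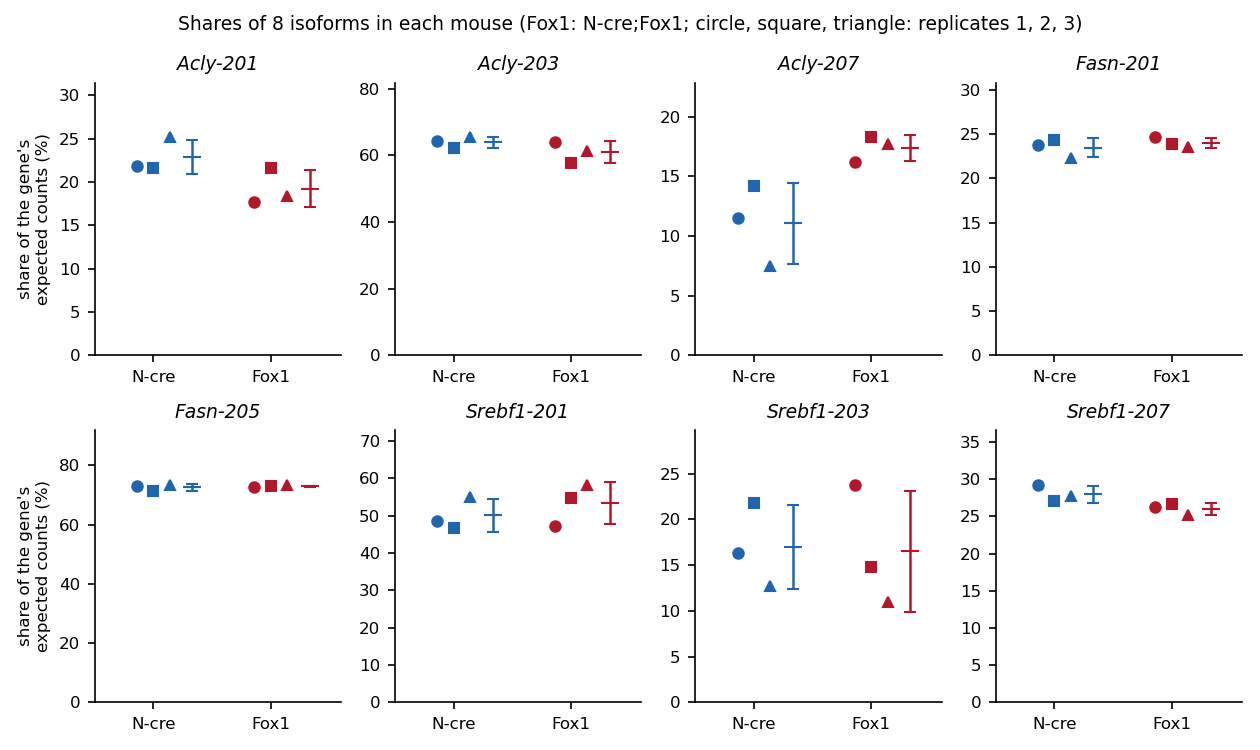
Share of 8 isoforms in the expected counts of Acly, Fasn or Srebf1 (percent, vertical axes from 0) in 3 N-cre (blue) and 3 N-cre;Fox1 mice (red, labelled Fox1), with mean and SD. Only Acly-207, higher, and Srebf1-207, lower, do not overlap between the genotypes among these 8. Each has an exact permutation p of 0.1, the smallest possible with 3 against 3, and 0.4 after adjustment. How often shares do not overlap over all isoforms was not computed.

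Acaca, which makes malonyl-CoA in the committed step, was at 69.4, 82.4 and 75.0 CPM in N-cre and at 79.7, 83.8 and 78.3 CPM in N-cre;Fox1 mice. N-cre replicate 2 lay within the range of the N-cre;Fox1 mice. Acaca had a log2 fold change of 0.09 ± 0.0597 (SE) and was not called (adjusted p 0.880 in edgeR). Its isoform Acaca-201 took 96.4% to 99.1% of its counts.

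Fasn, the synthase itself, was at 400.3, 383 and 398 CPM in N-cre and at 413, 390.1 and 427 CPM in N-cre;Fox1 mice. The genotypes overlapped, and the means differed by 4.13%. The fit gave a log2 fold change of 0.06 ± 0.0441 (SE), an adjusted p of 0.911 in edgeR and a fold between 0.973 and 1.11 at 95% confidence. Fasn-205 held 72.5 ± 1.11% of the counts in N-cre and 72.9 ± 0.292% in N-cre;Fox1 mice (SD, n = 3 each), and Fasn-201 held 23.4 ± 1.07% and 24.0 ± 0.575%. By position, Fasn-201 covers all 8333 nt of Fasn-205 and 1717 nt more, but 1 of the 42 exon joins of Fasn-205 is not in Fasn-201. A rarer form went the other way: Fasn-203, annotated as a retained intron, was at 6.64, 7.48 and 6.86 CPM in N-cre and at 4.001, 4.80 and 5.75 CPM in N-cre;Fox1 mice. All 3 N-cre;Fox1 mice were lower, and its log2 fold change of -0.53 was not called (adjusted p 0.990 over all isoforms in edgeR).

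Neither desaturase was called. Scd1 was at 167, 169 and 174 CPM in N-cre and at 129, 171 and 167 CPM in N-cre;Fox1 mice, so that N-cre;Fox1 replicate 1 alone was low. Scd1 had a log2 fold change of -0.13 ± 0.113 (SE) and an adjusted p of 0.930 in edgeR, and the change was -0.01 without that mouse. The same mouse had the highest Thrsp. Scd2, the main desaturase of the brain, was at 1419.9, 1433 and 1486 CPM in N-cre and at 1332, 1456 and 1508 CPM in N-cre;Fox1 mice. N-cre;Fox1 mice held both the lowest and the highest value. Scd2 had a log2 fold change of -0.01 ± 0.0498 (SE) and an adjusted p of 0.986 in edgeR. The paralogs share 145 windows of 50 identical bases, 3.03% of those in Scd1-201 and 2.68% of those in Scd2-201, so few reads can be confused between them.

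Elovl5 was the pathway gene with the largest fitted difference, and the one most like Thrsp. It was at 56.7, 58.2 and 54.0 CPM in N-cre and at 65.7, 60.7 and 62.1 CPM in N-cre;Fox1 mice. The genotypes did not overlap, and replicate 1 was again the highest of the N-cre;Fox1 mice. The means were 56.3 ± 2.14 and 62.8 ± 2.58 CPM (SD, n = 3 each), 11.6% apart, or 0.16 ± 0.0422 (SE) as a log2 fold change. The unadjusted p was 0.00359 and the adjusted p 0.636 in edgeR, so it was not called, and it was not called in any alternative, where the adjusted p ran from 0.315 to 1.00. Nearly all of its counts were on 1 isoform, Elovl5-201. Its promoter from RefSeq (GRCm38.p6, plus strand) is printed because Elovl5 and Thrsp were the 2 members furthest apart between the genotypes, with capitals for the E-box CACGTG and for ATTGG, the CCAAT box read on the other strand, which do not overlap.
Elovl5 promoter, chr9:77917115-77917363: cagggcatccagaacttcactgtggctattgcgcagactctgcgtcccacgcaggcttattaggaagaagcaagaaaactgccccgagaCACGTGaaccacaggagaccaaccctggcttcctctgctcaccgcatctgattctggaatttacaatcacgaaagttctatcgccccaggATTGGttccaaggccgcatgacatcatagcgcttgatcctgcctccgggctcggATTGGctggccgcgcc

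Letters that lipogenic factors can bind were counted on both strands of the RefSeq promoter windows, which reach into the start of each transcript. The E-box CACGTG, bound by USF factors, was in the Elovl5 window once and in none of those of Thrsp, Acaca, Acly, Fasn, Srebf1 and Me1, against 7.15% of 32851 windows. The table gives Me1 2 windows and Srebf1 3, for separate starts. The CCAAT box was in the windows of Fasn (3), Thrsp (2), Elovl5 (2) and Acly (1), in 1 of those of Me1 (1) and in 2 of those of Srebf1 (1 each), against 37.4% of all windows. Both matches of Thrsp lie past the 70 bases printed above, inside its transcript as annotated in GENCODE. The RefSeq start of Thrsp lies further downstream, so either match may lie before that start. The GC box GGGCGG was in the window of Acly 4 times, in 1 of those of Me1 4 times, in 2 of those of Srebf1 (3 and 2 times) and in none of Thrsp, Fasn, Elovl5 and Acaca, against 35.7%. The sterol element TCACCCCAC was in none of these windows, against 0.551%. The table had no entry for Scd1 and Scd2. No match says only that these letters are not in the window.

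Me1 was the most even of the genes. It was at 67.3, 70.5 and 69.6 CPM in N-cre and at 68.1, 68.9 and 68.4 CPM in N-cre;Fox1 mice. All N-cre;Fox1 mice lay within the range of the N-cre mice. Me1 had a log2 fold change of -0.01 ± 0.0327 (SE) and an adjusted p of 0.983 in edgeR, and its fold lay between 0.942 and 1.04 at 95% confidence.

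Of the 46 isoforms of the 9 genes, 41 had any counts and 31 had enough to be tested. No isoform of the 8 pathway genes was called, where 0 of 50556 isoforms were called in edgeR (0.0%). Of theirs, 3, Acly-207, Elovl5-201 and Fasn-203, had an unadjusted p under 0.05 in edgeR. The share of all isoforms under that threshold was not computed, so these 3 cannot be set against a background. DESeq2's Wald test called 215 isoforms over the whole table but none of those of the 8 pathway genes. Thrsp-201 and Thrsp-202 were higher in all N-cre;Fox1 mice, but they belong to the gene chosen for its higher count. Of the other isoforms, Acly-205, Acly-207 and Elovl5-201 also had all N-cre;Fox1 mice above all N-cre mice, against 5.85% of isoforms tested. In 2, Fasn-203 and Srebf1-211, all were below, against 5.68%. Acly-205 and Srebf1-211 stayed under 0.85 CPM in every mouse.

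The wider pathway was described by 6 lists of further genes, in which 0 genes were called. Of 27 other enzymes of fatty acid synthesis, elongation, desaturation and activation that were tested (Elovl3 was too low), 16 were above and 11 below 0, at a median log2 fold change of 0.03. At an unadjusted p under 0.05 in edgeR there was 1 higher and 2 lower, against 6.19% of all genes in either direction. In 1, Elovl6, all N-cre;Fox1 mice were higher, and in 1, Acss2, all were lower, against the same 6.06% and 6.11%. Elovl6, which lengthens palmitate to stearate, was at 67.6, 65.3 and 63.7 CPM in N-cre and at 72.8, 70.2 and 72.0 CPM in N-cre;Fox1 mice, a log2 fold change of 0.13 with an unadjusted p of 0.00421 and an adjusted p of 0.637 in edgeR. Acss2 makes acetyl-CoA from acetate, and its log2 fold change was -0.09 (adjusted p 0.799 in edgeR). Both were named after their values were seen.

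By the rule of largest difference, this list gives Elovl7 (0.23), Elovl2 (-0.22) and Acacb (0.20, the carboxylase of the mitochondrial surface). Elovl7 was at 17.9 CPM in N-cre replicate 3 and 26.2 CPM in N-cre;Fox1 replicate 2, the mice with choroid plexus counts, and at 9.20 to 11.5 CPM in the other 4. Acacb had the same 2 mice on top, at 9.40 and 13.7 CPM against 5.64 to 6.72 CPM. Elovl2, which acts on long polyunsaturated chains after Elovl5, was at 15.02, 16.6 and 17.2 CPM in N-cre and 15.3, 13.0 and 13.5 CPM in N-cre;Fox1 mice, with overlap.

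Of 24 regulators of lipogenesis, 4 were higher in all N-cre;Fox1 mice and 2 lower, against 6.06% and 6.11% of all genes, with a median log2 fold change of 0.01. At an unadjusted p under 0.05 in edgeR, 4 were higher and 0 lower, against 6.19% of all genes in either direction. The largest difference by the rule was in Ppargc1b, a coactivator of SREBP-1 (0.31), then Nr1h3, which encodes LXR alpha (0.28), and Insig1, which holds SREBPs back when sterols are high (0.23). Insig1 was at 50.2, 48.0 and 46.8 CPM in N-cre and at 51.9, 60.5 and 58.0 CPM in N-cre;Fox1 mice, with an unadjusted p of 0.00205 and an adjusted p of 0.595 in edgeR. Mid1ip1, the close relative of Thrsp, named after its values were seen, was at 66.7, 68.0 and 73.5 CPM in N-cre and at 69.2, 73.7 and 74.2 CPM in N-cre;Fox1 mice, which overlapped. As a log2 fold change this was 0.06 ± 0.0445 (SE).

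Thrsp is a classic target of thyroid hormone, so 12 genes of its transport, activation, receptors and response were also described. Their median log2 fold change was 0.02, with 6 above and 6 below 0. Of the 12, 1, Dio2, had an unadjusted p under 0.05 in edgeR, against 6.19% of all genes. The receptors Thra and Thrb overlapped between the genotypes, as did the responsive genes Klf9 and Hr, at log2 fold changes of -0.01, -0.11, -0.06 and 0.04. The largest were those of the transporter Slco1c1 (0.35), of Dio2, which activates the hormone (0.29), and of Dio3, which inactivates it (0.23). Dio3 alone, 1 of the 12, was apart and higher, against 6.06% of all genes. It was at 4.82, 5.67 and 5.72 CPM in N-cre and 6.30, 5.90 and 6.75 CPM in N-cre;Fox1 mice. Slco1c1, which choroid plexus also expresses, was highest at 85.5 and 62.5 CPM in the 2 mice with choroid plexus counts.

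The remaining lists also held no called gene. All N-cre;Fox1 mice were higher in 1 gene of each list, against 6.06% of all genes. All were lower in 1 triglyceride and lipid droplet gene and in 0 of the others, against 6.11%. At an unadjusted p under 0.05 in edgeR the share of all genes was 6.19%. Among 9 genes of NADPH supply the median was -0.00, 0 had an unadjusted p under 0.05 in edgeR, and the largest were H6pd (0.15), Me2 (0.12) and Idh1 (0.06). Among 11 triglyceride and lipid droplet genes the median was 0.00, 2 (Plin2 and Gpam) had an unadjusted p under 0.05 in edgeR, and Plin2, a coat protein of lipid droplets, was at 4.87, 4.64 and 4.29 CPM in N-cre and 5.04, 6.59 and 5.50 CPM in N-cre;Fox1 mice, with a log2 fold change of 0.31 and an adjusted p of 0.794 in edgeR. Gpam (0.13) and Dgat2 (-0.11) followed. Among 13 genes of fatty acid oxidation the median was 0.07 and 12 were above 0, led by Acaa2 (0.27), Ppara (0.26) and Slc25a20 (0.13), of which 0 were called and 0 had an unadjusted p under 0.05 in edgeR. Their mean log2 CPM, relative to the N-cre mean of each gene, was highest in the mice with choroid plexus counts, at 0.09 in N-cre replicate 3 and 0.24 in N-cre;Fox1 replicate 2. It was -0.03 and -0.06 in the other N-cre mice and 0.04 and -0.01 in the other N-cre;Fox1 mice. Without both mice with choroid plexus counts, a setting added after seeing the data, 11 of the 13 were above 0 at a median of 0.06.

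**Figure D5:**
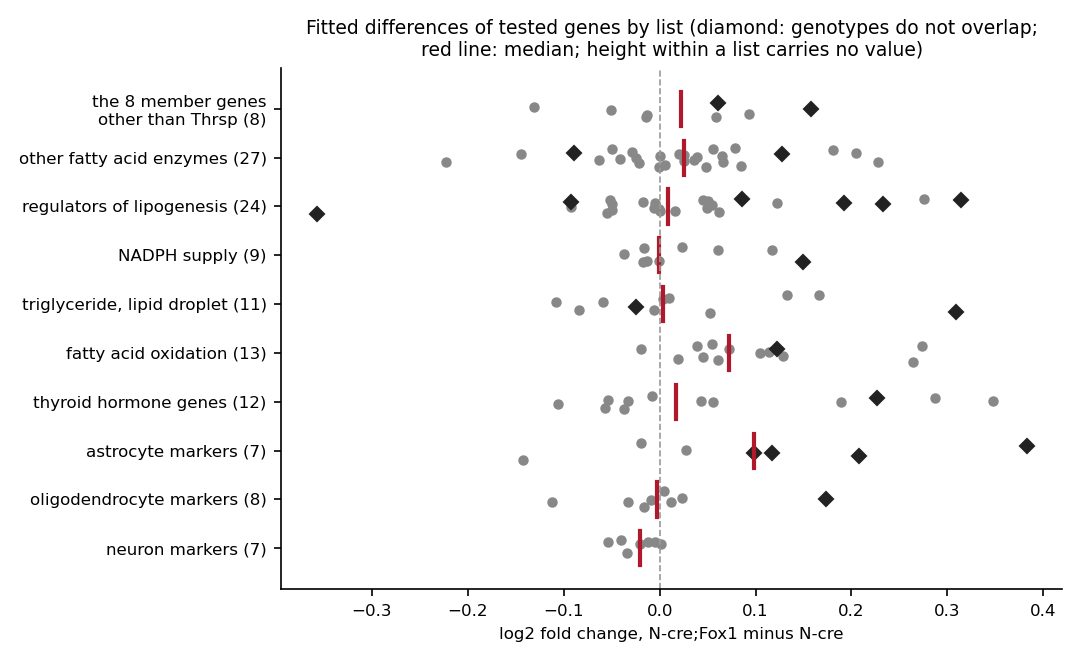
Log2 fold change (N-cre;Fox1 minus N-cre, horizontal axis) of each tested gene in the 8 pathway genes, the 6 further lists and 3 marker lists, with the number of genes in brackets, diamonds where the genotypes do not overlap and a red line at each median. Medians of the gene lists lie between -0.00 and 0.07, and that of the astrocyte markers at 0.10.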

How the data were processed

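Per the paper's methods and the labels, stranded total RNA libraries were trimmed with Cutadapt 1.18, mapped to mm10 with STAR 2.5.2b and quantified by the authors with RSEM 1.3.0 on GENCODE M16. The authors deposited expected counts per isoform, neither normalized nor filtered. Genotype and replicate came from the sample labels, and the mice are separate animals.

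Expected counts were summed per gene symbol, rounded, filtered (filterByExpr, minimum count 10, minimum total count 15) and compared with edgeR 4.0.16 in R 4.3.3 (quasi-likelihood, TMM, genotype only, Benjamini-Hochberg over all genes or isoforms). CPM values are TMM-scaled. Shares used expected counts that were not rounded and exact two-sided permutation tests (SciPy 1.17.1) for isoforms with a mean share of at least 10%. Positions and lengths came from GENCODE M21, where 130826 of 133944 isoforms had the same identifier and version. Scd1 and Scd2 were matched without version. The fits were tested on simulated data.

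The named isoforms were those over that share. From each list the 3 genes with the largest absolute log2 fold change at a mean normalized count of at least 100 are named, and the 5 genes with the highest r with Thrsp. The members and lists were chosen with earlier results of these data known. The p-values of the 8 genes are therefore a description. Alternatives were other size factors, filters, DESeq2 1.42.0, limma-voom (3.58.1), no rounding, a replicate block, a term for Xist, a stricter threshold, coding isoforms only and each mouse left out. Leaving out both mice with choroid plexus counts was added after seeing the data. One gene of the progenitor marker list is not reported here and is left out of its counts.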

Additional observations from a re-analysis of the deposited data

How the results depend on the processing

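None of the 8 genes other than Thrsp, and none of their isoforms, was called under any setting for which calls were computed. The Thrsp log2 fold change stayed between 0.30 and 0.43, and the median of the 8 between 0.01 and 0.05. Over all genes, 5 were called, and the count was 18 without a filter, 50 with DESeq2's Wald test, 11 with a term for Xist, 3 at an adjusted p under 0.01, and 2 to 29 with each mouse left out (2 without N-cre replicate 2, 3 without N-cre replicate 3, 29 without N-cre;Fox1 replicate 1, 3 without N-cre;Fox1 replicate 3). Over all isoforms, 0 were called, and the count was 8 without a filter, 6 with at least 10 counts in every mouse, 215 with DESeq2 and 1 without rounding. The cause of these differences was not tested. With the replicate block, 5 genes and 0 isoforms were called and Thrsp was at 0.37. The deviations of same-numbered mice correlated at 0.69, -0.16 and -0.29 over genes. The highest value, 0.72, was between N-cre replicate 3 and N-cre;Fox1 replicate 2, the mice with choroid plexus counts. With 3 mice per genotype and such features in single mice, these values cannot settle whether the numbers pair the mice.

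The signs of differences near 0 were not stable with a mouse left out. The log2 fold change ran from -0.053 to 0.040 for Scd2, -0.14 to 0.019 for Srebf1, -0.028 to 0.0042 for Me1, -0.073 to 0.18 for Srebf1-201, -0.39 to 0.15 for Srebf1-203, -0.052 to 0.041 for Acly-203, -0.057 to 0.031 for Scd2-201 and -0.041 to 0.0062 for Me1-201. For shares, in percentage points, it ran from -4.09 to 2.33 for Srebf1-203, -0.034 to 1.01 for Fasn-201 and -0.27 to 0.80 for Fasn-205. With coding isoforms only, the Fasn-205 share was -0.33 points. Without both mice with choroid plexus counts Acly-203 was at 0.055 and Acly-207 at 0.46. Of the 41 isoforms with counts, 31 had enough to be tested.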

Other observations

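Thrsp and fatty acid synthesis are known from neural progenitors of the adult hippocampus, and 8 markers of such cells and their progeny, a list chosen with the values of the 9 genes known, were compared. None was called, 4 log2 fold changes were above and 4 below 0 with a median of 0.04, and 3 of the 8 were higher and 0 lower in all N-cre;Fox1 mice, against 6.06% and 6.11% of all genes. Nes, the intermediate filament of progenitors, whose promoter drives the cre of both genotypes, was at 13.4, 13.6 and 14.8 CPM in N-cre and at 16.9, 19.6 and 17.7 CPM in N-cre;Fox1 mice, a log2 fold change of 0.37 with an adjusted p of 0.330 in edgeR. Hopx, a gene of radial glia-like stem cells and astrocytes, was at 67.6, 74.2 and 77.6 CPM against 93.6, 82.7 and 80.5 CPM. Top2a, a gene of dividing cells, was at 1.17, 1.47 and 1.31 CPM against 2.03, 1.77 and 2.25 CPM. The other 5 overlapped: Mki67, also of dividing cells, had a log2 fold change of -0.10, Dcx, of young neurons, -0.04, and the transcription factors Sox2 0.12, Neurog2 -0.24 and Eomes -0.27. Their relation to Thrsp was not tested.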
